A study of Mus musculus with 79 samples.

Results

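The 10 genes described here make or sense prostaglandins: the cyclooxygenase genes Ptgs1 and Ptgs2, the prostaglandin D2 synthase gene Ptgds, the prostaglandin E synthase genes Ptges, Ptges2 and Ptges3, and the genes of the 4 prostaglandin E2 receptors, Ptger1, Ptger2, Ptger3 and Ptger4. They were chosen by name among the 25899 genes of a table of CPM values (the reads of a gene scaled to the library's total), and all 10 were found in it. The table covers 79 libraries of ribosome-bound mRNA from mice heterozygous for a bacTRAP transgene, a bacterial artificial chromosome in which the promoter of the dopamine D1a or D2 receptor gene drives a green fluorescent form of the ribosomal protein L10a, so that ribosomes of the cells using that promoter can be pulled down with an antibody. All groups share the C57BL/6J background, carry a transgene and differ in its promoter and in the tissue taken: dorsal striatum with the D1 (n = 15) or the D2 promoter (n = 16), ventral striatum, which is the nucleus accumbens, with the D1 (n = 15) or the D2 promoter (n = 14), and prefrontal cortex with the D1 promoter (n = 19). Each library pooled tissue of 3 mice, of both sexes in all but 2 libraries whose sex label is incomplete, no treatment is named in the labels, and ages are not given in the labels. D2 prefrontal cortex was not analysed here.

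Prostaglandins are lipid messengers made on demand from arachidonic acid. Phospholipases free the fatty acid from membranes, the cyclooxygenases COX-1 (Ptgs1) and COX-2 (Ptgs2) turn it into prostaglandin H2, and terminal synthases then make prostaglandin E2, D2 or other products. Prostaglandin E2 acts on the G protein-coupled receptors EP1 to EP4, of which EP1 raises calcium, EP2 and EP4 raise cyclic AMP and EP3 mostly lowers it. In the brain, COX-2 is known for its expression in excitatory neurons of the cortex and hippocampus, where synaptic activity induces it, and COX-1 for its expression in microglia. Striatal projection neurons fall into a class with D1 receptors and a class with D2 receptors, which project along the direct and the indirect pathway.

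The stretches of genome just upstream of 3 members are shown because Ptgs1 and Ptgs2 were higher in prefrontal cortex than in striatum and were both higher in D1 than in D2 libraries of dorsal striatum, while Ptger2 had the opposite receptor difference. Each is the 250 bases before the start given for the gene in the RefSeq promoter set in GRCm38.p6, given 5′ to 3′ on the gene's strand, all 3 on the plus strand: chr2:36230176-36230425 for Ptgs1, chr1:150099781-150100030 for Ptgs2 and chr14:44987861-44988110 for Ptger2. The RefSeq span of Ptgs1 begins further upstream, at 36216742, so its stretch lies inside that span and in front of a later start. Capitals mark matches on either strand to 6 short motifs: the TATA box TATAAA, the CCAAT box CCAAT, the GC box GGGCGG, the cyclic AMP response half-site TGACG, the E-box CACGTG and the AP-1 site TGANTCA. No 2 of these motifs overlapped in the sequences printed.
Ptgs1: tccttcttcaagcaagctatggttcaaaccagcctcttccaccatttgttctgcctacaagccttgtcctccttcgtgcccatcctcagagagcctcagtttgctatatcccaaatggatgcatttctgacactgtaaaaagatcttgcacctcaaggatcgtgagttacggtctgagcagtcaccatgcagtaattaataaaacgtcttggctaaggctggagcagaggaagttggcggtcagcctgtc
Ptgs2: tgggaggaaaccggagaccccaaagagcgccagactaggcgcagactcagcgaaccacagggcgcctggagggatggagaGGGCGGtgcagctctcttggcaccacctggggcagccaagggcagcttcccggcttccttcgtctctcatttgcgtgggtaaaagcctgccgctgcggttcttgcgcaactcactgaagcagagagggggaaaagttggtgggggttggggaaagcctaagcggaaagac
Ptger2: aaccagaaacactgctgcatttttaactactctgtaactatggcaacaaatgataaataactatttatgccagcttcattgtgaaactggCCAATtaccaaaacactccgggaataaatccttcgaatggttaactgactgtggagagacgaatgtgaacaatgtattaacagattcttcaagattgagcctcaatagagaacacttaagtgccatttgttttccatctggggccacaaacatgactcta
The Ptgs1 stretch held none of the 6 motifs, the Ptgs2 stretch held 1 GC box and the Ptger2 stretch held 1 CCAAT box. Among the 27025 promoter windows of the RefSeq set, measured on the same 250 bases, 32.9% held a GC box and 34.5% a CCAAT box, 12.97% a TATA box, 17.9% the cyclic AMP half-site, 6.05% the E-box and 6.87% the AP-1 site. G and C made up 48% of the Ptgs1 stretch, 61.6% of that of Ptgs2 and 38% of that of Ptger2, beside a median of 52% over all windows. Of the 10 members, 9 were matched in the promoter table, and Ptger1 was not. The other members' genes lie at chr2:25466709-25470046 (Ptgds, minus strand), chr2:30889471-30929863 (Ptges, minus), chr2:32395896-32405772 (Ptges2, plus), chr10:128058954-128077272 (Ptges3, plus), chr8:83666678-83672753 (Ptger1, plus), chr3:157566892-157645888 (Ptger3, plus) and chr15:5206661-5244187 (Ptger4, minus) in the GENCODE M21 annotation of GRCm38. Ptgs1 spans chr2:36230426-36252272, Ptgs2 chr1:150100031-150108227 and Ptger2 chr14:44988195-45003820 in it.

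Libraries held 7.35 to 30.8 M (mega) reads in genes (median 17.5 M), and 1 read was worth 0.0124 to 0.0466 CPM. The floor used for a gene with no read, 3 reads, corresponds to 0.0373 to 0.140 CPM, and floors and read counts bear on counting error only. The defining markers matched the labels in the striatum: 3 D1 projection neuron markers summed to a median of 442 CPM in D1 dorsal and 355 CPM in D1 ventral striatum, against 30.3 and 37.5 CPM in the D2 libraries, and 4 D2 markers to 3681 and 2175 CPM in D2 dorsal and D2 ventral libraries against 62.8 and 131 CPM in D1. In prefrontal cortex the D1 marker sum was 24.3 CPM, and 5 cortical excitatory neuron markers (Slc17a7, Neurod6, Neurod2, Tbr1 and Emx1) summed to 498 CPM. Those cortical markers were also present in striatal D1 libraries, at a median of 79.2 CPM in dorsal and 53.7 CPM in ventral striatum, and were low in D2 libraries, at 6.24 and 9.23 CPM. One D2 ventral library, replicate 2, stood apart with 66.6 CPM, the next highest of its group being 17.6 CPM. Library names carry 4 letter codes of unstated meaning, spread unevenly over the groups: the code EM marked 53 of the 79 libraries and 8 of 16 and 8 of 14 in the D2 groups. For the differences the text turns on, values within EM libraries are given as well.

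Levels spanned a wide range. Per kilobase of the longest coding transcript, Ptges3 was the highest member, with group means of 21.8 to 25.4 CPM per kb, followed by Ptgds at 2.21 to 7.90 CPM per kb. Ptgs1 (0.204 to 1.99), Ptges2 (0.775 to 1.66), Ptger1 (0.602 to 1.06), Ptgs2 (0.0728 to 1.01) and Ptger4 (0.398 to 0.544 CPM per kb) came next. Ptger2 (0.0135 to 0.249), Ptger3 (0.00142 to 0.0972) and Ptges (0 to 0.0909 CPM per kb) were the lowest. Genes entered a test where at least 1 CPM was reached in as many libraries as the smaller group holds. By that rule Ptges, Ptger2 and Ptger3 were too low to judge in all 6 two-group comparisons, Ptgs2 in the 4 within striatum, and Ptgs1 in the 2 that involve D2 dorsal striatum. Ptger3 reached 1 CPM in 0 of 79 libraries, Ptges in 2 and Ptger2 in 8, all of the last in D2 dorsal striatum. For these, values from the same fit without the filter are given and named as such.

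**Figure D1:**
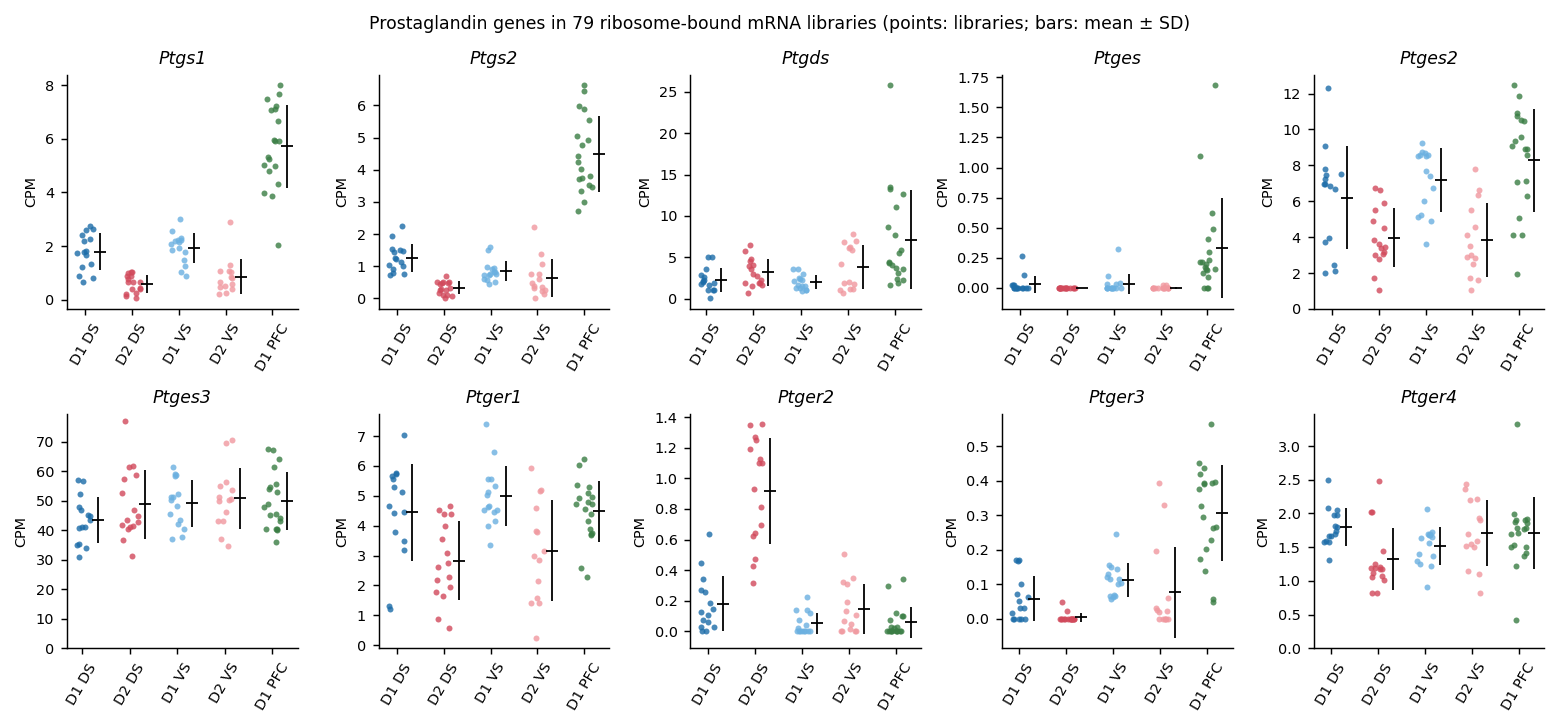
CPM of each of the 10 members (vertical axis, linear, its own scale per panel) in every library of D1 and D2 dorsal striatum (DS), D1 and D2 ventral striatum (VS) and D1 prefrontal cortex (PFC). Points are libraries and bars are the mean ± SD of the group: Ptgs1 and Ptgs2 are highest in prefrontal cortex, Ptger2 in D2 dorsal striatum, and Ptges3 lies between 31.0 and 77.2 CPM in every group.

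Both cyclooxygenase genes were higher in prefrontal cortex than in the D1 libraries of either part of the striatum. Ptgs1 ran from 2.04 to 7.999 CPM in prefrontal cortex (median 5.91), from 0.654 to 2.73 in D1 dorsal striatum (median 1.79), from 0.883 to 3.02 in D1 ventral striatum (median 2.09), from 0.0508 to 1.03 in D2 dorsal striatum (median 0.653) and from 0.217 to 2.88 in D2 ventral striatum (median 0.738). All but 1 of the 19 prefrontal libraries lay above every D1 striatal library, the exception being prefrontal replicate 19 at 2.04 CPM. The mean in prefrontal cortex, 5.72 ± 1.55 CPM (SD, n = 19), was 3.20 times that of D1 dorsal striatum (1.78 ± 0.69, n = 15) and 2.96 times that of D1 ventral striatum (1.93 ± 0.57, n = 15). On the log2(CPM + 0.5) scale, which understates differences of low genes, limma gave a difference of 1.46 (SE 0.15, adjusted p = 4.3e-11) against dorsal and 1.35 (SE 0.13, adjusted p = 1.2e-11) against ventral striatum. Within EM libraries the differences were 1.56 and 1.36. Ptgs1 passed the filter of these fits, 1 CPM in 15 libraries, through prefrontal cortex, where 19 of 19 libraries reached 1 CPM, against 12 of 15 in D1 dorsal and 14 of 15 in D1 ventral striatum. Without the filter the adjusted p was 5.3e-10 and 1.9e-10.

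Ptgs2 ran from 2.73 to 6.63 CPM in prefrontal cortex (median 4.23), and all 19 of these libraries were above every striatal library. Its range was 0.738 to 2.25 CPM in D1 dorsal striatum (median 1.21), 0.457 to 1.61 in D1 ventral striatum (median 0.760), 0 to 0.703 in D2 dorsal striatum (median 0.303) and 0.0145 to 2.23 in D2 ventral striatum (median 0.436). The prefrontal mean of 4.49 ± 1.18 CPM (SD, n = 19) was 3.56 times that of D1 dorsal striatum and 5.30 times that of D1 ventral striatum. The limma differences were 1.505 (SE 0.12, adjusted p = 5.4e-14) and 1.89 (SE 0.12, adjusted p = 5.2e-18), and 1.35 and 1.89 within EM libraries. Ptgs2 too passed the filter only through prefrontal cortex, where 19 of 19 libraries reached 1 CPM, against 10 of 15 in D1 dorsal and 2 of 15 in D1 ventral striatum. In the fit without the filter the adjusted p was 7.0e-13 and 3.4e-16. A fixed list of 7 immediate early genes, which neuronal activity induces as it does Ptgs2, differed in both directions: against D1 dorsal striatum 1 of 7 was higher in prefrontal cortex (Fos, 0.85) and 3 were lower (Egr1, -0.68; Nr4a1, -0.51; Fosb, -0.47), and against D1 ventral striatum 2 were higher (Fos, 1.10; Arc, 1.03) and 2 were lower (Fosb, -0.87; Junb, -0.76), in fits that called 54.8% and 62.8% of all tested genes.

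Within striatum, the dorsal part gave higher values of both cyclooxygenase genes in D1 than in D2 libraries, by the fit without the filter. Mean Ptgs1 was 1.78 ± 0.69 CPM where D1 neurons were tagged and 0.58 ± 0.33 CPM (SD, n = 16) where D2 neurons were, a ratio of 3.05, and 12 of 15 D1 libraries were above every D2 library. Mean Ptgs2 was 1.26 ± 0.44 CPM in D1 and 0.324 ± 0.201 CPM in D2, a ratio of 3.89, and all 15 D1 libraries were above every D2 library. Neither passed the filter there, with 14 and 10 libraries at 1 CPM where 15 were needed. Without it, limma gave 1.07 (SE 0.17, adjusted p = 1.9e-05) for Ptgs1 and 1.10 (SE 0.13, adjusted p = 9.7e-08) for Ptgs2, and 0.91 (adjusted p = 0.017) and 1.01 (adjusted p = 0.00031) within EM libraries. That fit over all libraries called 17.2% of 19281 genes.

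In ventral striatum Ptgs1 was again higher in D1 libraries, at 1.93 ± 0.57 CPM against 0.86 ± 0.67 CPM (SD, n = 14), a ratio of 2.23. The D2 group had 1 high library, replicate 6, at 2.88 CPM, and the next was 1.31 CPM. The limma difference was 0.91 (SE 0.18, adjusted p = 0.00011), 1.02 without that library, 0.95 without D2 ventral replicate 2, the library with the high cortical markers, and 0.68 within EM libraries. Ptgs1 passed the filter of that fit, 1 CPM in 14 libraries, through the D1 group, where 14 of 15 libraries reached 1 CPM, against 5 of 14 in D2; without the filter the adjusted p was 0.00029. Ptgs2 was 0.846 ± 0.324 CPM in D1 and 0.638 ± 0.590 CPM in D2 ventral striatum, and the groups overlapped over their whole D1 range. Replicate 6 was the highest D2 ventral library for Ptgs2 too, at 2.23 CPM. Without the filter the Ptgs2 difference was 0.36 (95% interval -0.02 to 0.73, adjusted p = 0.15; 0.10 within EM libraries), in a fit that called 29.9% of genes.

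The receptor difference of Ptgs2 was 0.74 larger on the log2 scale in dorsal than in ventral striatum by the interaction test over the 4 striatal groups (SE 0.23, adjusted p = 0.061; 0.073 without the filter), which did not pass the threshold. Of the 15 libraries that took the gene past the filter of this fit, 10 were from D1 dorsal striatum, 0 from D2 dorsal, 2 from D1 ventral and 3 from D2 ventral striatum. Over the 11 alternatives the adjusted p ran from 0.034 (all groups in 1 fit) to 0.13 (pseudocount 0.1) and was under 0.05 in 3. For Ptgs1 the interaction was 0.16 (95% interval -0.33 to 0.65, adjusted p = 0.81). Among D1 libraries, the Ptgs2 difference between dorsal and ventral striatum was 0.38 (SE 0.12, adjusted p = 0.022, fit without the filter, in which 22.8% of genes were called), and Ptgs1 differed by -0.12 (95% interval -0.43 to 0.20, adjusted p = 0.60). Of the 7 immediate early genes, the filtered fit of that comparison called 3 higher in dorsal (Arc at 0.86, Egr1 at 0.75, Nr4a1 at 0.67) and 1 lower (Fosb at -0.40), beside 34.6% of all genes. In D1 against D2 dorsal striatum 2 were higher in D1 (Nr4a1 at 0.58, Fosb at 0.57) and 1 was lower (Egr1 at -0.39), beside 25.9%.

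By their medians, the markers of cortical excitatory neurons ranked the groups as Ptgs2 did, and as Ptgs1 did but for the order of D1 dorsal and D1 ventral striatum. Their summed level was 449 to 773 CPM in prefrontal cortex, 24.0 to 108 in D1 dorsal, 13.8 to 92.7 in D1 ventral, 0.928 to 27.9 in D2 dorsal and 2.79 to 66.6 CPM in D2 ventral striatum, and Emx1 had a median of 0 in both D2 groups. D2 ventral replicate 6, the library highest in both genes, had a cortical sum of 14.8 CPM, and replicate 2, with the highest sum, had 1.31 CPM of Ptgs1 and 0.760 CPM of Ptgs2. The 5 GABA interneuron markers summed to medians of 155 CPM in prefrontal cortex, 35.8 in D1 dorsal, 12.6 in D2 dorsal, 24.6 in D1 ventral and 29.7 CPM in D2 ventral striatum. Of them, 5 of 5 tested were called higher in prefrontal cortex than in D1 dorsal and 4 of 5 than in D1 ventral striatum. In D1 against D2, 3 of 4 were called higher in D1 in dorsal striatum (Sst at 1.54, Pvalb at 1.08, Npy at 1.36) and 0 of 4 in ventral striatum. Those fits called 54.8%, 62.8%, 25.9% and 47.7% of all tested genes, in that order, and 32.3%, 27.7%, 12.8% and 24.1% higher in the first group. The 6 microglial markers summed to a median of 3.65 CPM in prefrontal cortex and of 2.59 to 3.25 CPM in the striatal groups, with C1qa at a median of 0 in all 5 groups and Tmem119 in the D1 groups. The part of these cells in the cyclooxygenase differences was not tested. In bulk pull-downs of this kind, fewer cells of a type and less RNA per cell cannot be told apart.

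**Figure D2:**
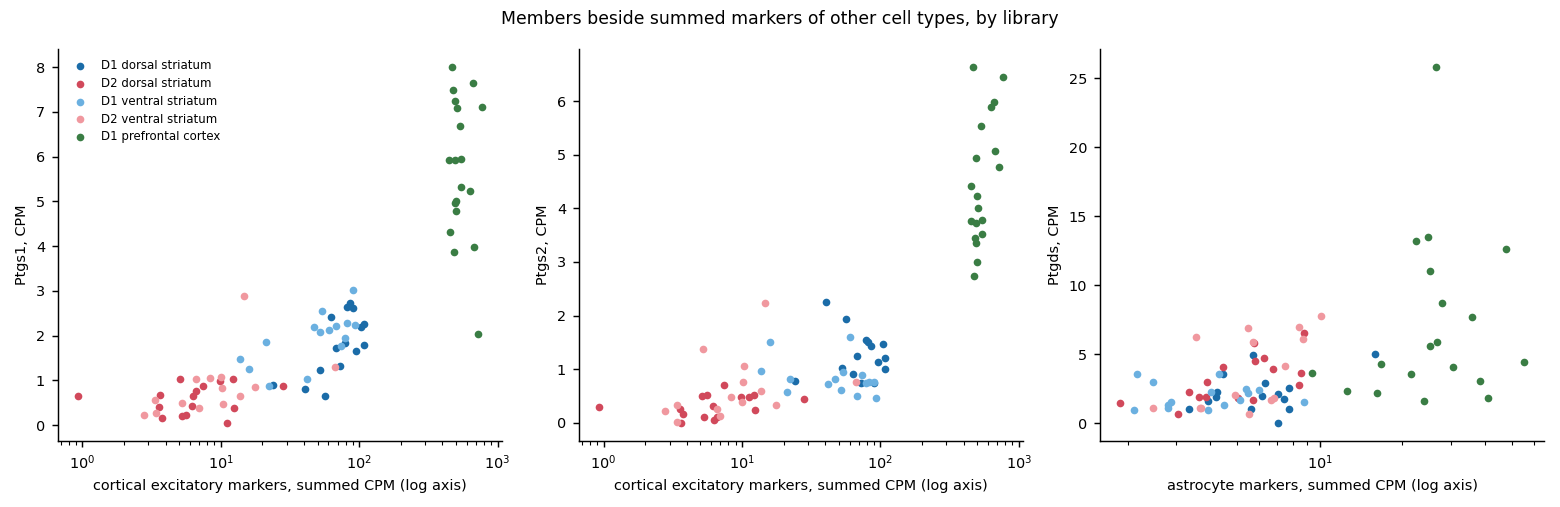
Ptgs1 and Ptgs2 (vertical axes, CPM) against the summed CPM of 5 cortical excitatory markers, and Ptgds against the sum of 5 astrocyte markers (horizontal log axes), 1 point per library, coloured by group. Prefrontal libraries lie apart on each cortical axis, at 449 to 773 CPM, and the Ptgds panel shows 1 prefrontal library at 25.8 CPM.

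Over the 6 two-group comparisons, the 10 members gave these calls in the filtered limma fit (adjusted p under 0.05). In D1 against D2 dorsal striatum 2 of 5 tested members were called, both higher in D1 (Ptger1 and Ptger4), where 25.9% of all tested genes were called and 12.8% were higher in D1. In D1 against D2 ventral striatum 3 of 6 were called, all higher in D1 (Ptgs1, Ptges2 and Ptger1), beside 47.7% of all genes called and 24.1% higher in D1. Dorsal against ventral striatum gave 0 of 6 in D1, where 34.6% of genes were called, and 0 of 5 in D2, where 28.5% were. Prefrontal cortex against dorsal striatum gave 3 of 7 (Ptgs1, Ptgs2 and Ptgds, all higher in prefrontal cortex), beside 54.8% of genes called and 32.3% higher. Prefrontal cortex against ventral striatum gave the same 3 of 7 beside 62.8% called and 27.7% higher. Those 2 comparisons share the prefrontal libraries. The interaction gave 0 of 7 beside 2.64%, and 0 of 7 by edgeR, which called 300 of 11873 genes. At an unadjusted limma p under 0.05 stood 2 of 7 in the interaction (Ptgs2 and Ptger4), beside 1771 of 11873 genes. With 5 to 7 members tested, these counts are not read as particular to the members. The median log2 difference of the tested members was 0.37 in D1 against D2 dorsal striatum (0.02 over all genes), 0.36 in ventral striatum (0.02), 0.43 for prefrontal cortex against dorsal (0.05) and 0.13 against ventral striatum (-0.07).

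**Figure D3:**
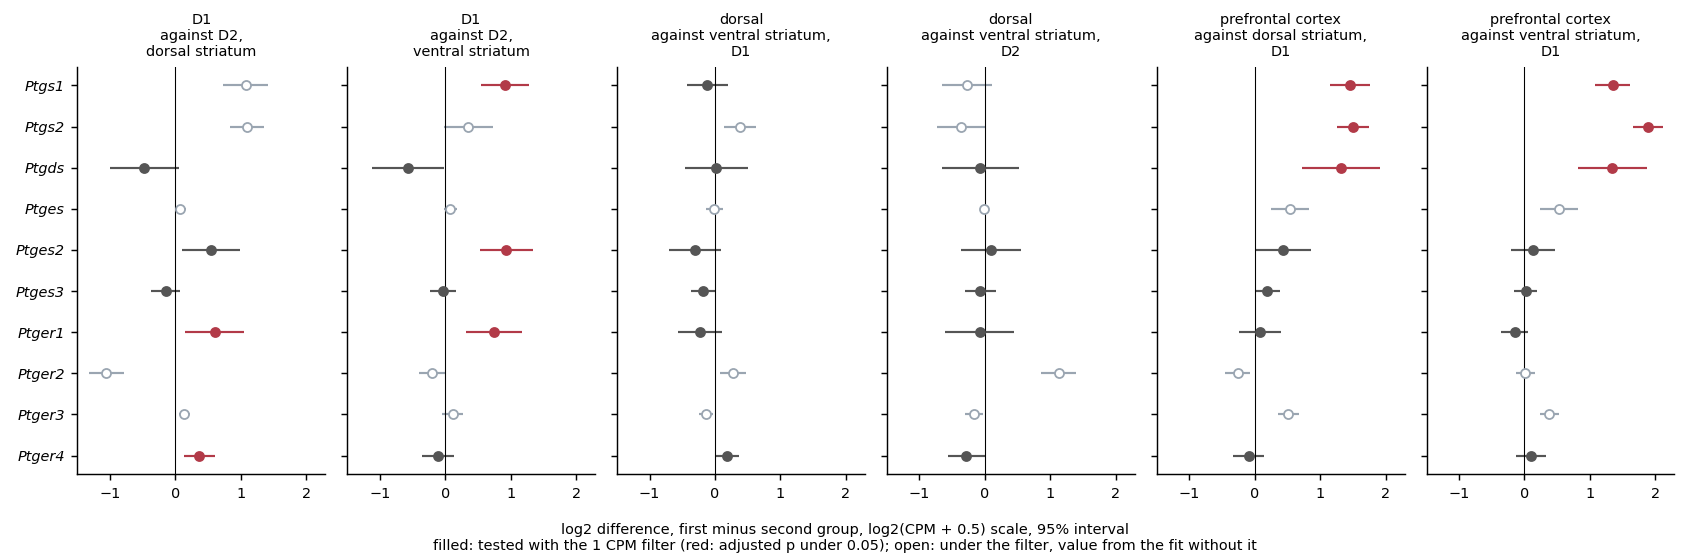
Log2 differences (first minus second group, log2(CPM + 0.5) scale, horizontal axis) with 95% intervals for the 10 members in the 6 comparisons. Filled points were tested with the filter and are red where the adjusted p was under 0.05. Open points failed the filter and come from the fit without it. The largest value is that of Ptgs2 in prefrontal cortex against ventral striatum, 1.89.

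For dorsal against ventral striatum, the median of all genes was -0.12 in both D1 and D2. Of the members tested with the filter, values in D1 ran from -0.30 (Ptges2) to 0.19 (Ptger4, adjusted p = 0.0998) and in D2 from -0.29 (Ptger4, adjusted p = 0.12) to 0.09 (Ptges2). At an unadjusted p under 0.05 stood 1 of 6 in D1 and 1 of 5 in D2, Ptger4 in both, beside 4951 of 11332 and 4354 of 11187 genes. On recovered reads edgeR called 1 of 6 in D1, Ptger4 (0.35, adjusted p = 0.025), and 0 of 5 in D2, beside 3245 of 11332 and 2682 of 11187 genes.

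Ptgds encodes lipocalin-type prostaglandin D synthase, known as a product of the meninges, choroid plexus and oligodendrocytes. It ran from 1.59 to 25.8 CPM in prefrontal cortex (median 4.42), from 0.0327 to 5.06 in D1 dorsal striatum (median 1.94), from 0.704 to 6.51 in D2 dorsal striatum (median 2.88), from 0.967 to 3.56 in D1 ventral striatum (median 1.69) and from 0.671 to 7.75 CPM in D2 ventral striatum (median 3.09). The prefrontal group was wide, with a mean of 7.11 ± 6.01 CPM (SD, n = 19) that fell to 6.08 CPM without its highest library, and 9 of its 19 libraries were above every D1 dorsal and 13 above every D1 ventral library. The limma difference from prefrontal cortex was 1.32 (SE 0.30, adjusted p = 0.00022) to dorsal and 1.34 (SE 0.26, adjusted p = 2.2e-05) to ventral striatum, and 1.69 and 1.54 within EM libraries. Libraries with the code BdP, too few to test, differed from this: the 3 from prefrontal cortex had a median of 1.83 CPM (1.59 to 2.34), below the 2.23 CPM (1.74 to 5.06) of the 3 from D1 dorsal striatum and above the 1.31 CPM (1.08 and 1.55) of the 2 from D1 ventral striatum. Without the highest prefrontal library, replicate 13, the difference from ventral striatum was 1.22 (adjusted p = 2.4e-05).

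In D2 striatal libraries Ptgds was nominally above D1, at 3.17 ± 1.66 against 2.24 ± 1.41 CPM in dorsal and 3.83 ± 2.69 against 1.99 ± 0.87 CPM in ventral striatum. Neither difference passed the test: D1 minus D2 was -0.47 (95% interval -0.996 to 0.05, adjusted p = 0.17) in dorsal and -0.56 (95% interval -1.11 to -0.01, adjusted p = 0.084) in ventral striatum. D2 values differed by name code in both regions. Among D2 ventral libraries, the 8 coded EM had a median of 6.18 CPM (1.82 to 7.75) and the 5 coded OdP a median of 1.11 CPM (0.671 to 2.04). Among D2 dorsal libraries, the 8 coded EM had a median of 3.84 CPM and the 8 coded OdP a median of 1.86 CPM, beside 1.94 CPM in the D1 dorsal libraries coded EM. Within EM libraries the ventral difference was -1.21 (adjusted p = 0.00023), and with edgeR it was -0.89 (adjusted p = 0.017).

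Of the markers of other cell types, the median sums for astrocytes, mural cells, meningeal fibroblasts, endothelium and microglia were highest in prefrontal cortex, as Ptgds was, and those for oligodendrocytes and choroid plexus were lowest there. All 5 astrocyte markers (Gfap, Aqp4, Aldh1l1, Slc1a3 and Gja1) were called higher in prefrontal cortex than in either D1 striatal group. Those fits called 32.3% (dorsal) and 27.7% (ventral) of all tested genes higher in prefrontal cortex. The astrocyte sum was 9.40 to 55.4 CPM in prefrontal cortex (median 25.1) against 3.34 to 15.9 in D1 dorsal and 2.12 to 8.77 CPM in D1 ventral striatum. The 5 oligodendrocyte markers summed (Mbp, Mog, Mobp, Mag and Cldn11) had medians of 59.7 CPM in D1 dorsal, 79.4 in D2 dorsal, 39.5 in D1 ventral, 52.5 in D2 ventral and 33.5 CPM in prefrontal cortex. Called lower in D1 than in D2 were 2 of the 4 tested in dorsal striatum (Mobp at -0.81, Cldn11 at -0.86). In ventral striatum 1 of the 2 tested was (Mobp at -1.35), and the other, Mbp, was at -0.03. Those 2 fits called 25.9% and 47.7% of all tested genes. The 4 mural cell markers summed to a median of 8.69 CPM in prefrontal cortex (4.61 to 17.8) against 1.46 to 2.47 CPM in the striatal groups. Rgs5, the 1 tested, was higher in prefrontal cortex by 2.11 than in D1 dorsal and by 2.13 than in D1 ventral striatum. Its D1 minus D2 difference was -0.68 in ventral (limma adjusted p = 0.0093) and -0.25 in dorsal striatum (adjusted p = 0.49). The 5 meningeal fibroblast markers had a median of 0.987 CPM in prefrontal cortex and of 0.0638 to 0.440 CPM in striatum, with Lum at a median of 0 in all 5 groups, and those of endothelium 0.536 CPM against 0.117 to 0.402 CPM. Choroid plexus markers were 0.630 CPM in prefrontal cortex and 11.8 to 17.6 CPM in striatum. The part of these cells in the Ptgds values was not tested.

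Of the prostaglandin E synthases, Ptges encodes the inducible membrane-bound enzyme. It had reads in 28 of the 79 libraries and in 0 of 16 of D2 dorsal striatum. In prefrontal cortex it had reads in 16 of 19 libraries and ran from 0 to 1.68 CPM (median 0.199), the highest 2 libraries being at 1.09 and 1.68 CPM. Means in the striatal groups were at most 0.0354 CPM. Without the filter, prefrontal cortex was higher than D1 dorsal striatum by 0.54 (SE 0.14, adjusted p = 0.0022) and than D1 ventral striatum by 0.53 (SE 0.15, adjusted p = 0.0026), or 0.44 (adjusted p = 0.029) and 0.49 (adjusted p = 0.010) within EM libraries, values that the pseudocount shrinks strongly at this level, and 41.9% and 47.0% of all genes were called in those fits. In striatum the gene was too low to judge.

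Ptges2, the gene of a second membrane-associated synthase, was above 1 CPM in all 79 libraries and had its highest medians where D1 neurons were tagged. Its median was 8.93 CPM in prefrontal cortex (1.96 to 12.5), 7.68 in D1 ventral (3.60 to 9.26), 6.95 in D1 dorsal (2.00 to 12.3), 3.54 in D2 dorsal (1.06 to 6.75) and 3.23 CPM in D2 ventral striatum (1.03 to 7.82). In ventral striatum the D1 mean of 7.18 ± 1.78 CPM was 1.86 times the D2 mean of 3.86 ± 2.07 CPM, and 7 of 15 D1 libraries were above every D2 library (limma difference 0.93, SE 0.20, adjusted p = 0.00028; 0.64 within EM libraries). In dorsal striatum the difference was 0.55 (95% interval 0.10 to 0.99, adjusted p = 0.064) and did not pass by limma, while edgeR on recovered reads called it (0.64, adjusted p = 0.038), as did limma with all groups in 1 fit (adjusted p = 0.043). Within EM libraries it was 0.46 (adjusted p = 0.19). The share of all reads that fell in genes differed between the ventral groups (35.1 ± 1.6% in D1, 38.0 ± 1.5% in D2), and with that share as a covariate the ventral value was 0.40 (adjusted p = 0.31), so the call was lost. That covariate took the calls over all genes from 5443 to 1218 of 11410. Ventral Ptges2 also differed by name code: D2 ventral libraries had a median of 5.04 CPM in EM and 2.48 CPM in OdP libraries.

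Ptges3, which also encodes p23, a co-chaperone of HSP90, was the most abundant member and the most even. Group means lay between 43.5 and 50.9 CPM and single libraries between 31.0 and 77.2 CPM, and the groups overlapped, although 5 of 16 D2 dorsal libraries were above every D1 dorsal library. The 6 log2 differences ran from -0.18 to 0.20, with the widest interval from -0.30 to 0.16. By limma 0 of 6 passed, 1 had an unadjusted p under 0.05 (prefrontal cortex against dorsal striatum, 0.20), and edgeR called 0. Of its 6 HSP90 chaperone partners, 3 were called in D1 against D2 ventral striatum (Cdc37, 0.74; Fkbp4, 0.66; Hsp90ab1, 0.34, all higher in D1). Prefrontal cortex was higher in 3 of 6 partners than dorsal (Hsp90aa1, 0.51; Fkbp4, 0.50; Stip1, 0.24) and in 2 than ventral striatum (Hsp90aa1, 0.59; Hsp90ab1, 0.18). Dorsal against ventral striatum in D1 gave 1 of 6 (Fkbp4, -0.39). Over all tested genes these 4 fits called 47.7%, 54.8%, 62.8% and 34.6%, in the order given. By limma 0 of 6 were called in D1 against D2 dorsal striatum (2 at an unadjusted p under 0.05), where 25.9% of genes were, and 0 of 6 in dorsal against ventral striatum in D2 (0 at an unadjusted p under 0.05), where 28.5% were. In those 2 fits 4278 of 11090 and 4354 of 11187 genes had an unadjusted p under 0.05. A processed copy of Ptges3 matches 480 bases of its transcript and is not among the listed genes, so the Ptges3 value is uncertain to the extent that reads of the copy were counted in it.

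Among the receptors, Ptger1 (EP1) had the highest level. Its median was 4.67 CPM in D1 dorsal (1.21 to 7.03), 4.66 in D1 ventral (3.35 to 7.39), 4.71 in prefrontal cortex (2.28 to 6.21), 2.68 in D2 dorsal (0.559 to 4.66) and 3.06 CPM in D2 ventral striatum (0.253 to 5.92). D1 was higher than D2 in ventral striatum (0.75, SE 0.21, adjusted p = 0.0042; 0.80 within EM libraries), with 2 of 15 D1 libraries above every D2 library. D1 was also higher in dorsal striatum (0.60, SE 0.22, adjusted p = 0.042), with 8 of 15 above every D2 library. That dorsal call was lost in the fit without the filter (adjusted p = 0.071), within EM libraries (0.30, adjusted p = 0.59), with the name code as a covariate (0.30, adjusted p = 0.53) and without D2 dorsal replicate 6, the lowest library (0.50, adjusted p = 0.070). With the gene share of the reads taken as a covariate, the dorsal value was 0.33 (adjusted p = 0.23) and the ventral value 0.36 (adjusted p = 0.45). Among the 3 D1 groups no Ptger1 difference passed the limma test, the largest being -0.23 for dorsal against ventral striatum (95% interval -0.57 to 0.11). Of the 5459 exonic bases of Ptger1, 71.0% also lie in other annotated exons, the highest share of the 10 members, and a use of strand in counting is not given in the sources used here. How much of the level and of the D1 differences given here is Ptger1 is therefore uncertain.

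Ptger2 (EP2) was low and had its highest median in D2 dorsal striatum. In D2 dorsal striatum it ran from 0.318 to 1.35 CPM (median 1.02), which is 20 to 94 reads a library, and no library lacked it. In D1 dorsal striatum it ran from 0 to 0.635 CPM (median 0.126), in D2 ventral striatum from 0 to 0.506 (median 0.0850), in D1 ventral striatum from 0 to 0.225 (median 0) and in prefrontal cortex from 0 to 0.344 CPM (median 0). Thus 12 of 16 D2 dorsal libraries were above every D1 dorsal library and 13 of 16 were above every D2 ventral library. The mean of 0.917 ± 0.350 CPM (SD, n = 16) was 5.11 times that of D1 dorsal striatum (0.180 ± 0.182) and 6.34 times that of D2 ventral striatum (0.145 ± 0.164).

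Without the filter, limma gave -1.06 for D1 minus D2 in dorsal striatum (SE 0.13, adjusted p = 2.8e-07) and 1.13 for dorsal minus ventral in D2 (SE 0.13, adjusted p = 1.2e-07), with 17.2% and 18.6% of all genes called. On recovered reads edgeR gave -2.32 (adjusted p = 9.1e-05) and 2.79 (adjusted p = 0.00018), and within EM libraries limma gave -1.22 and 1.15. The EM and OdP libraries of D2 dorsal striatum had medians of 1.02 and 0.898 CPM. In ventral striatum the receptor difference was -0.20 (95% interval -0.40 to -0.0025, adjusted p = 0.12). An antisense gene in the table, Gm17173, shares 4.74% of the exonic bases of Ptger2 and had group means of at most 0.0360 CPM. Cholinergic interneuron markers, which D2 pull-downs can hold, had medians of 6.32 CPM in D2 dorsal, 0.751 in D1 dorsal, 12.2 in D2 ventral and 1.34 CPM in D1 ventral striatum. By limma Slc5a7, the 1 of 3 tested in dorsal striatum, was lower in D1 than in D2 (-2.28). In ventral striatum all 3 were lower in D1 (Slc5a7 at -2.43, Chat at -2.02, Lhx8 at -1.90). Those 2 fits called 25.9% and 47.7% of all tested genes. Oligodendrocyte precursor markers had medians of 2.38, 0.876, 4.82 and 0.700 CPM in the same order of groups. Cspg4, the 1 of 2 tested in dorsal striatum, was lower in D1 than in D2 (-1.22), and 0 of 2 were tested in ventral striatum. Their part in the Ptger2 values was not tested.

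Ptger3 (EP3) stayed under 1 CPM in every library. It was highest in prefrontal cortex, from 0.0477 to 0.563 CPM (median 0.327), with 2 to 36 reads a library. It ran from 0.0583 to 0.245 CPM in D1 ventral, 0 to 0.170 in D1 dorsal, 0 to 0.393 in D2 ventral and 0 to 0.0480 CPM in D2 dorsal striatum, where 14 of 16 libraries held no read. Of the 19 prefrontal libraries, 16 were above every D1 dorsal and 13 above every D1 ventral library. Without the filter, prefrontal cortex was higher by 0.52 (SE 0.08, adjusted p = 5.3e-07) and 0.38 (SE 0.07, adjusted p = 3.1e-05), or 0.52 and 0.39 within EM libraries. Differences within striatum ran from -0.16 to 0.14 on this scale and at a few reads a library are too low to judge.

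Ptger4 (EP4) was low and even, with group means of 1.32 to 1.80 CPM. Its range was 1.31 to 2.50 CPM in D1 dorsal (median 1.75), 0.821 to 2.48 in D2 dorsal (median 1.19), 0.904 to 2.07 in D1 ventral (median 1.64), 0.824 to 2.44 in D2 ventral (median 1.65) and 0.421 to 3.33 CPM in prefrontal cortex (median 1.77). D1 was higher than D2 in dorsal striatum (1.80 ± 0.28 against 1.32 ± 0.46 CPM; 0.37, SE 0.11, adjusted p = 0.016), although only 1 of 15 D1 libraries was above every D2 library. Within EM libraries the value was 0.41 (adjusted p = 0.058), with the name code as a covariate 0.41 (adjusted p = 0.061), and 0.42 (adjusted p = 0.0040) without D2 dorsal replicate 13, the highest of its group. In ventral striatum D1 minus D2 was -0.11 (95% interval -0.36 to 0.14, adjusted p = 0.48), and the interaction was 0.48 (SE 0.16, adjusted p = 0.086), which did not pass over all libraries and passed within EM libraries (0.65, adjusted p = 0.031). Ttc33, on the opposite strand, shares 1.23% of the exonic bases of Ptger4 and had group means of 23.6 to 31.7 CPM, and its D1 minus D2 difference in dorsal striatum was -0.18 (adjusted p = 0.51). Gm15937, a pseudogene on the opposite strand that is not among the listed genes, shares a further 15.3%.

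Further genes of the pathway came from a list of 22, of which 21 were in the table and 8 passed the filter. The cytosolic phospholipase gene Pla2g4b was higher in D1 than in D2 libraries, by 0.77 in dorsal (adjusted p = 0.00082) and 0.70 in ventral striatum (adjusted p = 0.0043). Dorsal striatum was above ventral striatum for it too, by 0.76 in D1 and 0.68 in D2. In D1 against D2 dorsal striatum it was the 1 call of 8, and in ventral striatum Pla2g6, a calcium-independent phospholipase gene (0.62), and Mgll (0.54) made it 3 of 8, all higher in D1, where 25.9% of all tested genes were called in the dorsal and 47.7% in the ventral fit. Mgll encodes monoacylglycerol lipase, which frees arachidonic acid from an endocannabinoid in brain, and ran from 11.4 to 32.5 CPM in dorsal striatum and from 33.6 to 64.5 CPM in prefrontal cortex.

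In prefrontal cortex against D1 dorsal striatum 5 of 8 were called, beside 54.8% of all tested genes, with Pla2g4e (1.35), Mgll (1.16) and Pla2g6 (0.65) higher and Pla2g4b (-0.86) and Ptgfrn (-0.56), a binding partner of the prostaglandin F receptor, lower. Against D1 ventral striatum 4 of 8 were called, beside 62.8% of all, with Pla2g4e (1.18), Mgll (0.69) and Pla2g6 (0.57) higher and Ptgr2 (-0.34), a prostaglandin reductase gene, lower. Dorsal against ventral striatum gave 2 of 8 in D1 (Pla2g4b, and Mgll at -0.47) and 2 of 8 in D2 (Pla2g4b, and Ptgfrn at 0.57), beside 34.6% and 28.5% of all. The median of the 8 was 0.16, 0.23, -0.09, 0.03, -0.08 and -0.09 in D1 against D2 dorsal, D1 against D2 ventral, dorsal against ventral in D1 and in D2, and prefrontal cortex against dorsal and ventral striatum. Receptors of the other prostanoids were near 0: Ptgir, Tbxa2r, Ptgfr and Ptgdr had group medians of 0 to 0.0194 CPM, and the thromboxane synthase gene Tbxas1 a median of 0 in all 5 groups. Hpgds, the hematopoietic prostaglandin D synthase gene, had group medians of 0.0448 to 0.235 CPM.

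The genes whose log2(CPM + 0.5) values were most like a member's were found among 12333 genes over the 79 libraries, as a description in which libraries share depth and scaling. Over all libraries Ptgs1 was most like Slc17a7 (r = 0.91), a vesicular glutamate transporter gene of cortical neurons, Id2 (0.91) and Hs3st2 (0.91), and Ptgs2 most like Olfm1 (0.92), Nptx1 (0.92) and Bdnf (0.91). After the group means were taken off, the highest values fell to 0.59 for Ptgs1 (Zfp61) and 0.58 for Ptgs2 (Tmem111). Within groups Ptges2 was most like Snf8 (0.87), Ptges3 most like Ttc33 (0.77), Ptger4 most like Gm10131 (0.56) and Ptgds most like Gm20425 (0.74), Tmbim1 (0.72) and Apoe (0.70), the last an apolipoprotein gene known from astrocytes.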

How the data were processed

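The authors deposited 1 table of CPM values per gene and library. Per the labels, libraries came from amplified cDNA of ribosome-bound RNA, read as 50-base pairs. Per the submitters' processing notes, GRCm38, Trim Galore 0.4.2, cutadapt 1.9.1, FastQC and HISAT2 were used; the counting program, annotation and filters are not given in the sources used here. Dividing the deposited CPM by each column's step gave whole reads (within 0.01 read) for 100% of values above 0, with 7.35 to 30.8 M reads in genes a library. Columns summed to 309566 to 401527 CPM, so scaling was to a total larger than the reads in genes.

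Each comparison was fitted over all genes with limma 3.58.1 (lmFit, eBayes with trend, R 4.3.3) on log2(CPM + 0.5), compared groups only, for genes with at least 1 CPM in as many libraries as the smaller group holds; the two-sided p-values were adjusted over all genes by the Benjamini-Hochberg method and called under 0.05. edgeR 4.0.16 on recovered reads called 2966 of 11090 genes in D1 against D2 dorsal striatum, where limma called 2871. Both were tested on simulated data. All 10 members are named, and from each list the genes called; for likeness, the 3 genes with the highest r. Some genes, and results that need them, are not reported here; marker sums leave them out. Genes under the filter were given from a fit without it. The members and lists were chosen with earlier results of these data known. Groups came from the labelled region and receptor. Replicate numbers follow accession order and pair nothing, and p-values measure the spread between pools; whether libraries of different regions share mice is not stated. No libraries of the same group agreed within sampling noise (592 within-group pairs), and libraries of different groups were not compared in this way. Loci and exon overlaps were read from GENCODE M21, copies from BLAST 2.17.0 at 95% identity over at least 100 bases, and promoters from RefSeq GRCm38.p6. Alternatives were other pseudocounts, filter, scalings, tool, covariates (genes past the filter only), EM libraries only and single libraries left out.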

Additional observations from a re-analysis of the deposited data

Results flagged for a closer look

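In the fit without the filter, the D1 minus D2 difference of Ptger2 differed between dorsal and ventral striatum, with an interaction of -0.857 on the log2(CPM + 0.5) scale (SE 0.17, limma adjusted p = 0.00084), beside 1.51% of all genes called in that fit. Means were 0.180 CPM in D1 and 0.917 CPM in D2 dorsal striatum, and 0.0498 CPM in D1 and 0.145 CPM in D2 ventral striatum. Within EM libraries it was -0.97 (adjusted p = 0.0056). In edgeR on recovered reads, which compares ratios of reads with no added 0.5 CPM, the interaction was -0.81 with an adjusted p of 0.77, so the call was lost: D2 was 5.11 times D1 in dorsal and 2.90 times D1 in ventral striatum. The gene did not pass the 1 CPM filter, so neither value belongs to the filtered test.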

How the results depend on the processing

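Each log2 difference of a member that passed the filter was recomputed under 11 alternatives. Those under the filter were recomputed only under 4 further ones without it: edgeR, EM libraries, another pseudocount and scaling to reads in genes. The D1 minus D2 dorsal differences of Ptgs1, Ptgs2 and Ptger2 are of this kind. They were thus not fitted with the name code, gene share or males in pool as a covariate, or with all groups in 1 fit. The 4 further alternatives, and fits without D2 ventral replicate 2, were chosen after seeing the data. In all, 550 values kept their direction and side of the threshold, 24 newly passed it, 15 no longer passed it and 23 changed sign. The prefrontal calls of Ptgs1, Ptgs2 and Ptgds and the ventral call of Ptgs1 passed in all 11. Without the filter the number of members called was 5 in D1 against D2 dorsal striatum, 3 in dorsal against ventral D1, 1 in dorsal against ventral D2, 6 and 5 in prefrontal cortex against dorsal and ventral striatum, and 1 in the interaction, beside 17.2%, 22.8%, 18.6%, 41.9%, 47.0% and 1.51% of all genes; more genes were tested there. With the name code as a covariate, fitted only for genes past the filter, the number was 0 in D1 against D2 dorsal striatum. It was 5 in prefrontal cortex against dorsal striatum and 1 in the interaction. Those fits called 1658 of 11090, 6814 of 11654 and 480 of 11873 genes, in that order. In dorsal against ventral D1, 1 member was called with median-ratio scaling, edgeR and the gene share covariate, beside 3309, 3245 and 4557 of 11332 genes. In dorsal against ventral D2, 1 was called in EM libraries (2238 of 11288 genes) and with all groups in 1 fit (4113 of 11187). In the interaction, 1 was called with a pseudocount of 1 (328 of 11873 genes), EM libraries (234 of 11971) and all groups (399 of 11873). The cause was not tested.

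None of the values that changed sign was called, and their cause was not tested. In D1 against D2 ventral striatum Ptges3 became 0.074 (scaling to reads in genes) and 0.23 (gene share). In dorsal against ventral D1, Ptges became 0.046 (EM, no filter) and Ptgds -0.067 (pseudocount 0.1) and -0.15 (EM). In dorsal against ventral D2, Ptges2 became -0.020 (EM) and -0.15 (gene share), Ptges3 0.058 (median ratio), 0.082 (edgeR) and 0.074 (gene share), Ptger1 0.024 (median ratio) and 0.22 (EM), and Ptgds 0.046 (median ratio) and 0.019 (name code). In prefrontal cortex against dorsal striatum Ptger1 became -0.082 (edgeR), and against ventral striatum Ptges3 became -0.0019 (gene share) and Ptger2 -0.023 (EM, no filter). In the interaction Ptges became 1.07 (edgeR), 0.053 (EM) and 0.0042 (pseudocount 0.1), all without the filter, Ptger1 0.084 (gene share) and Ptgds -0.020 (pseudocount 0.1) and -0.094 (name code). Calls without the filter that were lost within EM libraries were Ptger3 in D1 against D2 dorsal striatum, Ptger2 and Ptger3 in dorsal against ventral D1, and Ptger2 in prefrontal cortex against dorsal striatum. Median reads a library in the striatal groups were 0 for Ptges, 0 to 5 for Ptger3 and 0 to 43.5 for Ptger2, the last highest in D2 dorsal striatum. Whether depth had a part in the lost calls was not tested. No paired analysis was possible because the labels give no replicate numbers and do not say which libraries share mice.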
